A study of Mus musculus with 8 samples.

Results

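The genes described here are 6 that smooth muscle and peritubular myoid cells use to contract: Acta2, Tagln, Actg2, Des, Cnn1 and Myh11. They were chosen by name, and every probe set annotated to them was taken. Each gene had 1 probe set, which makes 6 of the 12488 probe sets and 6 of the 8252 annotated genes of the array. The samples were mouse embryonic gonads, 1 Affymetrix MG_U74Av2 array for each combination of stage, sex and genotype. The groups were Wnt4 KO male and wild-type (WT) male, Wnt4 KO female and WT female, each at embryonic day 14.5 (E14.5) and at E12.5. The allele, the strain and the number of embryos behind an array are not given in the labels, and no group had a replicate.

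Contractile cells slide actin filaments past myosin filaments. Smooth muscle cells do so around vessels and ducts, and in the testis a flat layer of peritubular myoid cells wraps the cords and later moves sperm along the tubules. Serum response factor switches on many genes of this program by binding a DNA motif called the CArG box. Acta2 (smooth muscle alpha actin) and Actg2 (smooth muscle gamma actin) build the thin filaments, Myh11 is the smooth muscle myosin heavy chain, Tagln (transgelin) and Cnn1 (calponin 1) bind actin, and Des (desmin) forms intermediate filaments.

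Levels are log2 signals after each array was centred on a common median, and differences are log2. A floor was set at 6.99, the 40th percentile of all values, and a probe set entered the test only if it exceeded the floor on at least 2 arrays, which 8452 did. Of the 6 genes, 4 (Acta2, Tagln, Actg2 and Des) were above the floor on all 8 arrays. Cnn1 was above it on 2 arrays, both of E14.5 males, and passed the filter through them alone. A male stage difference and an E14.5 sex difference of Cnn1 are therefore set by the filter, and Cnn1 is given by its levels and counted in no comparison. Myh11 was under the floor on all 8 arrays and was not tested. Since whole gonads were used, a change in the number of contractile cells and a change in RNA per cell cannot be told apart.

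The 2 arrays of E14.5 males stood apart from the rest. They correlated with each other at r = 0.996, and with the other 6 arrays at 0.884 to 0.908, while those 6 correlated among themselves at 0.979 to 0.997. Probe sets at least 2-fold apart numbered 1504 to 2085 between an E14.5 male array and 1 of the 6, against 9 to 151 between any pair of the 6. The array labelled WT female E14.5 had a level of 7.63 for the Y-linked gene Eif2s3y, against 4.86 to 6.04 on the other 3 female arrays and 6.91 to 8.12 on the male arrays. Its Xist level was 7.10, against 7.69 to 8.13 on the other female arrays and 4.07 to 4.79 on the male arrays. Wnt4 itself was at 8.32 to 9.19 on the KO arrays, against 9.26 to 10.19 on the WT arrays, and each KO array was below the WT array of its sex and stage.

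**Figure D1:**
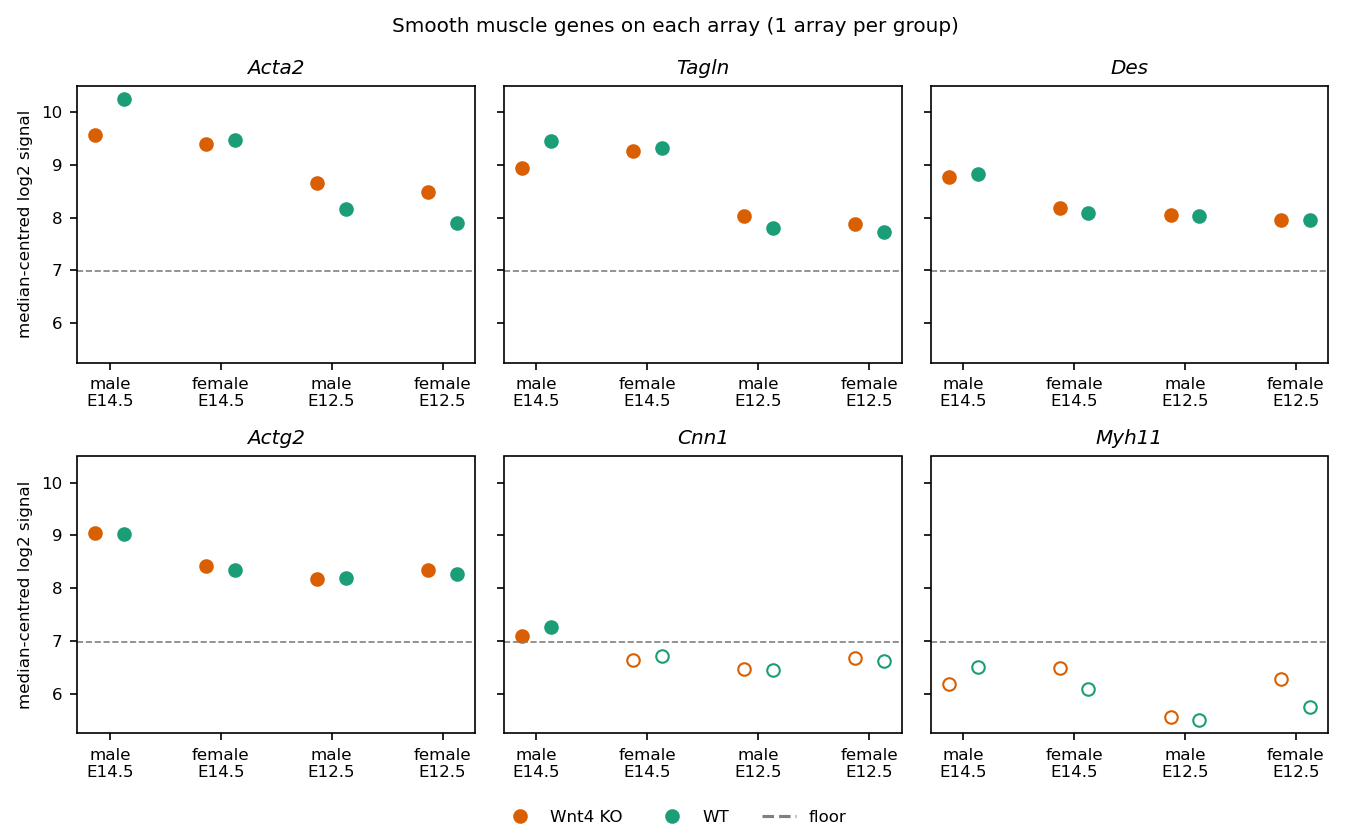
Median-centred log2 signal (vertical axis) of the 6 genes on each of the 8 arrays, by sex and stage, with Wnt4 KO left of WT in each pair; filled points lie above the floor of 6.99 (dashed line) and open points under it. Acta2 and Tagln were higher on every E14.5 array than on any E12.5 array, Actg2 and Des stood out in E14.5 males, and Myh11 was under the floor throughout.

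Acta2 lies on chromosome 19 (chr19:34240336-34255585, GRCm38.p6). Its levels at E14.5 were 9.58 in the KO male, 10.26 in the WT male, 9.39 in the KO female and 9.48 in the WT female. Its levels at E12.5 were 8.65 in the KO male, 8.17 in the WT male, 8.48 in the KO female and 7.89 in the WT female. The E14.5 and E12.5 arrays did not overlap, and the span of 2.37 over the 8 arrays exceeded that of 98.3% of the tested probe sets. From high to low, the order was WT male, KO male, WT female and KO female at E14.5, then KO male, KO female, WT male and WT female at E12.5. At E14.5 the KO male exceeded the KO female by 0.18. The SE of 0.31 that the fit gave an Acta2 difference is for averages over genotypes or stages and not for single arrays. The order of the 3 arrays below the WT male was not tested.

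Tagln lies on chromosome 9 (chr9:45929628-45936058). At E14.5 it was at 8.94 in the KO male, 9.45 in the WT male, 9.27 in the KO female and 9.31 in the WT female. At E12.5 it was at 8.03 in the KO male, 7.80 in the WT male, 7.89 in the KO female and 7.72 in the WT female. Here too the stages did not overlap, and at E14.5 the lowest level was that of the KO male, under both females. The share of all tested probe sets whose stages were as separate as those of Acta2 and Tagln is not given here.

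Actg2 on chromosome 6 (chr6:83512909-83536251) and Des on chromosome 1 (chr1:75360292-75368579) had another profile. Actg2 was at 9.05 in the KO male and 9.03 in the WT male at E14.5, and between 8.17 and 8.41 on the other 6 arrays. Des was at 8.77 in the KO male and 8.82 in the WT male at E14.5, and between 7.95 and 8.18 on the other 6. The 2 E14.5 males were thus the highest arrays for both genes. The share of all tested probe sets with this order is not given here. The name of the Actg2 probe set carries the suffix f, by which the maker marks probes that match several members of a gene family. Actin genes are nearly identical in their coding parts, so signal from other actins in this probe set was not tested.

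Cnn1 (chr9:22099221-22109221) was at 7.08 in the KO male and 7.26 in the WT male at E14.5, just above the floor, and between 6.45 and 6.71 on the other arrays. Myh11 (chr16:14194527-14292188) was between 5.49 and 6.50, with the WT male highest at E14.5. Its level ranked between the 18.4 and the 31.3 percentile of an array's probe sets.

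Over the 8 arrays, Pearson's r was 0.946 between Acta2 and Tagln and 0.973 between Actg2 and Des. With the E14.5 males set aside, r over the remaining 6 arrays was 0.959 for Acta2 with Tagln and 0.439 for Actg2 with Des. The points share their arrays, so these values are descriptions. Against the mean profile of the 5 tested genes, 832 of 6221 genes outside the lists had r above 0.9 over the 8 arrays, led by Rpl35a (0.991), Uchl1 (0.991), Sult4a1 (0.990), Lsp1 (0.989), Bgn (0.987) and Lama2 (0.987). Cnn1 is 1 of the 5, and its profile over the 8 arrays is set by the filter. Over the 6 arrays Cnn1 was at the floor throughout and did not enter the mean profile. Against that profile of the other tested genes, 344 of 5911 genes had r above 0.9. They were led by Prrc2a (0.996), Matn2 (0.992), Lsp1 (0.992), Eln (0.991), Rnf19b (0.990) and Osbpl5 (0.990).

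RefSeq promoter windows, from 250 bases before to 50 after the start that each window uses, were at hand for Acta2, Des and Cnn1. They are described because Acta2 and Tagln moved together with stage. The exact CArG box, sought on both strands, was in 1.63% of 32851 mouse windows and in none of the 3. With 1 letter off, a setting chosen after that result, it was in 21.1% of all windows, and among the 3 only Acta2 matched, at 2 places. These are shown with the 10 matched letters in capitals, on the minus strand of GRCm38.p6, at chr19:34255438-34255467 and chr19:34255388-34255417, where the matches begin 84 and 34 bases before the start of the window's transcript. That start lies inside the gene span given above, so both stretches do too. A match is a description of letters and not of binding.
Acta2 site at 84 bases: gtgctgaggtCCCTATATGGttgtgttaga
Acta2 site at 34 bases: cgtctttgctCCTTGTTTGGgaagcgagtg

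Stage was the factor that went with the largest differences of Acta2 and Tagln among the 6 arrays that resembled each other. In females, Tagln rose with stage, and its mean was 9.29 at E14.5, against 7.80 at E12.5. The difference was 1.49 ± 0.18 (SE), or 2.80-fold, with an adjusted p of 0.0130 in limma's test over all 8452 probe sets, where it ranked 16 from the top. Acta2 averaged 9.43 at E14.5 and 8.19 at E12.5 in females, a difference of 1.25 ± 0.31 (2.37-fold), rank 27. Its adjusted p in limma was 0.0507, just past the threshold of 0.05, and 5 of 7 other settings gave values under it, in a range of 0.0177 to 0.141. Des differed by 0.18 ± 0.07 (limma adjusted p = 0.109) and Actg2 by 0.07 ± 0.06 (0.437), and Cnn1 was at the floor on all 4 female arrays. In all, 1 of the 4 genes passed, higher at E14.5, where 8.41% of all tested probe sets did and 23.1% passed in either direction.

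The same rise was seen in single pairs of female arrays. Tagln was 1.38 higher at E14.5 than at E12.5 in KO females and 1.59 higher in WT females. Acta2 was 0.91 higher in KO females and 1.58 higher in WT females. At least 2-fold higher at E14.5 were 0.745% of the probe sets in the KO pair, Tagln among them, and 0.568% in the WT pair, Tagln and Acta2 among them. The KO values are those without the array labelled WT female E14.5. In that reduced fit, and in each of the other 7 that left out 1 array, no probe set of the whole table passed in females (0 called, with 1936 to 2737 at an unadjusted limma p under 0.05).

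In males, Acta2, Tagln, Actg2 and Des, the 4 genes above the floor on all arrays, rose with stage. Acta2 averaged 9.92 at E14.5 and 8.41 at E12.5, a difference of 1.51 ± 0.31 (2.84-fold, limma adjusted p = 0.00854). Tagln differed by 1.28 ± 0.18 (limma adjusted p = 0.00220), Actg2 by 0.86 ± 0.06 (1.92e-04) and Des by 0.76 ± 0.07 (3.56e-04). The count of 4 stands against a background in which 38% of all tested probe sets were higher and 77.8% passed in either direction. Without 1 array in turn, Actg2, Tagln and Des passed in all 8 fits and Acta2 in 4. Acta2 lost its call without any 1 of the 4 male arrays, at 2.09 without either KO male (limma adjusted p = 0.0503 without that of E14.5 and 0.0523 without that of E12.5) and at 0.92 without either WT male (0.158 and 0.161 in the same order). Acta2 was 0.92 higher in the KO pair, where 7.32% of the probe sets were at least 2-fold higher. It was 2.09 higher in the WT pair, where 7.5% were and it ranked 5 from the top.

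The rise of Actg2 and Des depended on the scale. The deposited array medians were 0.78 lower at E14.5 than at E12.5 in males and 0.25 lower in females. On the deposited values, Des differed by -0.02 and Actg2 by 0.08 in males, and by -0.07 and -0.18 in females, and none of these passed. Tagln stayed higher at 0.50 (limma adjusted p = 0.0371) in males and 1.24 (0.00298) in females, and Acta2 at 0.73 (0.0573) and 0.99 (0.0289). Of all calls in males, 48.8% were higher at E14.5 after centring, against 11.1% on the deposited values, and in females 36.5% against 5.24%, or 49% after quantile normalization.

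**Figure D2:**
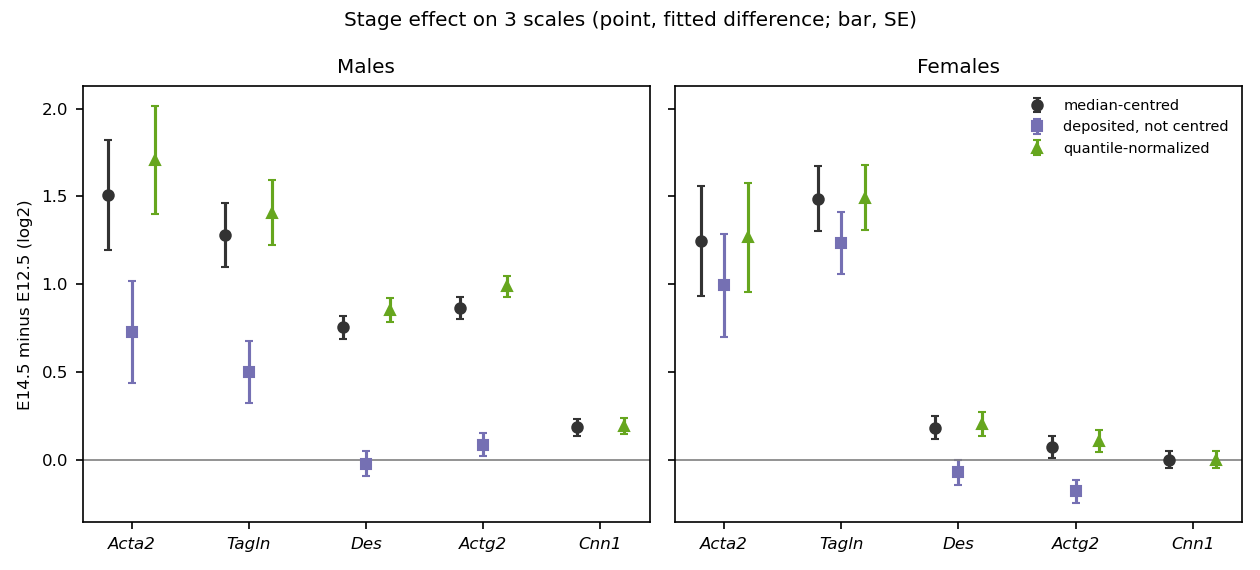
E14.5 minus E12.5 difference (log2, vertical axis) of the 5 tested genes in males and in females on 3 scales, with the SE of the fit as the bar; Cnn1 has no value on the deposited scale, where it failed the filter. Acta2 and Tagln were above 0 on each scale in both sexes. On the deposited scale, Des was at -0.02 and Actg2 at 0.08 in males, and at -0.07 and -0.18 in females.

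The stage difference itself differed between the sexes for 2 of the 4 genes. It was 0.79 ± 0.09 larger in males for Actg2 (limma adjusted p = 0.00131) and 0.57 ± 0.09 larger for Des (0.00446), while 69% of all tested probe sets passed this test. For Acta2 the difference between the sexes was 0.26 ± 0.44 and for Tagln -0.21 ± 0.26, with limma adjusted p of 0.620 and 0.508. On the deposited values, Actg2 passed at 0.26 and Des did not at 0.05. Tagln passed there the other way, with a stage difference smaller in males by -0.73 (limma adjusted p = 0.0396), and Acta2 was at -0.26 (0.586). Des also missed the threshold without either WT male array, at 0.53 (limma adjusted p = 0.0567 without that of E14.5 and 0.0539 without that of E12.5). As these contrasts rest on the 2 E14.5 male arrays, what set those arrays apart cannot be told apart from stage in males.

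Between males and females at E12.5, 0 of 4 genes passed, against 16.3% of all tested probe sets. Acta2 averaged 8.41 in males and 8.19 in females, a difference of 0.22 ± 0.31, and Tagln 7.92 and 7.80, a difference of 0.11 ± 0.18 (limma adjusted p = 0.701 and 0.748). At an unadjusted p under 0.05 the count of members was also 0. At E14.5, Actg2 was 0.67 ± 0.06 higher in males and Des 0.66 ± 0.07 (limma adjusted p = 4.44e-04 and 5.90e-04), which makes 2 of 4 genes, where 39.5% of all tested probe sets were higher and 77.5% passed in either direction. Without the array labelled WT female E14.5, Actg2 was at 0.67 and Des at 0.62 (limma adjusted p = 0.0150 and 0.0190). Acta2 differed by 0.48 ± 0.31 (0.217) and Tagln by -0.09 ± 0.18 (0.669). On the deposited values, Tagln passed as lower in males at -0.48 (limma adjusted p = 0.0482), while Actg2 was at 0.28 (0.00927), Des at 0.27 (0.0152) and Acta2 at 0.09 (0.825). Of all calls at E14.5, 51% were higher in males after centring and 27.5% on the deposited values, and at E12.5 47.8% and 85.6%.

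Loss of Wnt4 gave no call. In females 0 of 4 genes passed between KO and WT, and in males 0 of 4, with 0% of all tested probe sets called in either sex. At an unadjusted limma p under 0.05 there were 962 probe sets in females and 405 in males, none of them a member. The KO-by-sex difference also gave 0 of 4, with 0% of all tested probe sets called and 971 at an unadjusted limma p under 0.05. Acta2 averaged 8.94 in KO and 8.68 in WT females, a difference of 0.25 ± 0.31, and 9.11 in KO and 9.21 in WT males, a difference of -0.10 ± 0.31. Des and Actg2 differed by 0.07 or less in both sexes.

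The KO minus WT values of Acta2 had opposite signs at the 2 stages. At E14.5, KO minus WT was -0.68 in males and -0.09 in females, and at E12.5 it was 0.49 in males and 0.59 in females. Among all tested probe sets, the E12.5 values ranked 33 from the top in males and 24 in females. Tagln had the same signs, at -0.50 in males and -0.05 in females at E14.5, and 0.23 in males and 0.17 in females at E12.5. A fit of genotype within each stage, added after these values were seen, gave Acta2 a KO effect of 0.54 ± 0.15 at E12.5 and -0.38 ± 0.15 at E14.5. Neither passed (limma adjusted p = 0.776 and 1), where 0.0828% of all probe sets passed at E12.5 and 0% at E14.5. The difference between the stages was -0.92 ± 0.21 for Acta2 (limma adjusted p = 0.656, unadjusted 0.00377) and -0.47 ± 0.18 for Tagln (adjusted p, rounded, of 1, unadjusted 0.0366), with 0% of all probe sets called. With no filter and no floor, the Acta2 value passed (limma adjusted p = 0.0280), as did 0.386% of all probe sets.

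**Figure D3:**
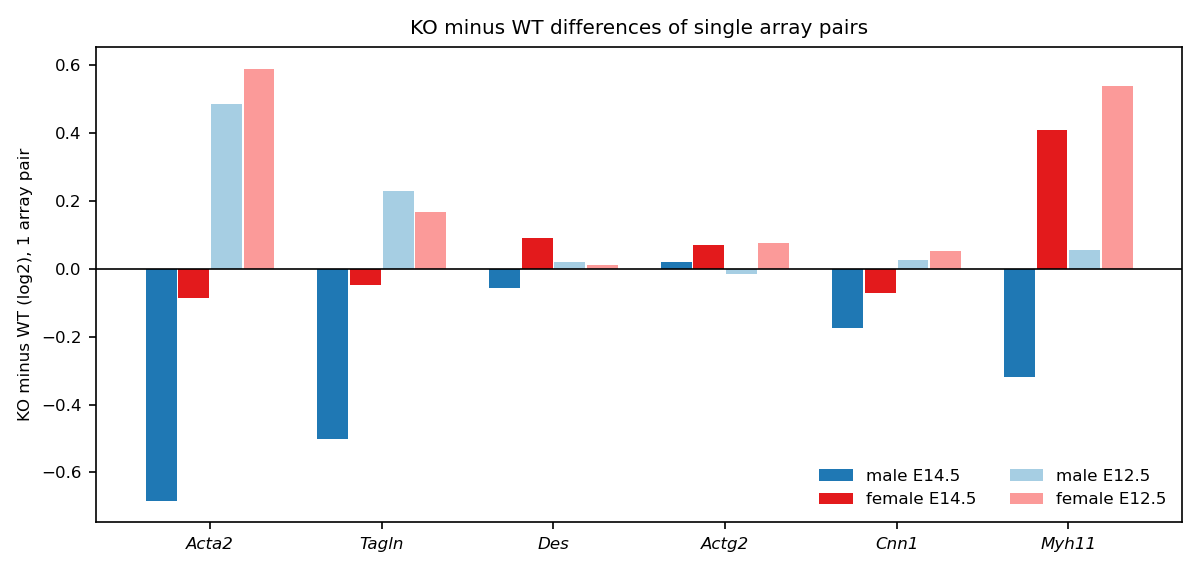
KO minus WT difference (log2, vertical axis) of each gene in the 4 array pairs, males and females at E14.5 left of those at E12.5; each bar is 1 pair with no replicate, and Myh11 and most Cnn1 values lie under the floor. On this median-centred scale, Acta2 and Tagln bars point down at E14.5 and up at E12.5.

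Among other genes of the contractile apparatus, of 30 listed genes 23 had a probe set and 20 were tested. In females 1 rose, the LIM protein Csrp1 at 0.33 ± 0.07 (limma adjusted p = 0.0348). The 3 that fell were the LIM proteins Csrp2 at -0.46 ± 0.07 and Pdlim7 at -0.37 ± 0.06 (limma adjusted p = 0.0170 and 0.0173) and the integrin chain Itga8. Itga8 was above the floor on the E12.5 arrays alone. Its stage differences in both sexes are therefore set by the filter, and it was kept in the list. Of all tested probe sets, 8.41% were higher and 14.6% lower. Csrp1 did not pass on the deposited values, at 0.08 (limma adjusted p = 0.363). The list's median was 0.03, against -0.02 for all probe sets. In males 3 rose and 12 fell, with a median of -0.41, where 38% of all tested probe sets were higher and 39.9% lower. The largest falls were those of Cnn3, a calponin found outside smooth muscle, at -1.93 ± 0.05, the nonmuscle myosin chain Myh9 at -1.20 ± 0.13, the tropomyosin Tpm4 at -1.20 ± 0.06 and the actinin Actn1 at -1.05 ± 0.08. The probe sets of Cnn3 and Actn1 carry the suffix f, like that of Actg2, and signal from related genes in them was not tested. The 3 that rose were the myosin light chain Myl9 (0.79 ± 0.11), Pdlim7 (0.64 ± 0.06) and the integrin chain Itga7 (0.56 ± 0.09). On the deposited values, Myl9 was at 0.01, and Pdlim7 and Itga7 turned to -0.14 and -0.22.

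The cytoplasmic actin Actg1, which all cells use, fell in males at -0.91 ± 0.05 (limma adjusted p = 1.17e-04), opposite to Acta2 and Actg2.

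Among regulators of smooth muscle genes, 15 of 20 listed were tested. In females 0 rose and 1 fell, Id3, a repressor of differentiation, at -0.69 ± 0.10 (limma adjusted p = 0.0155). In males 5 rose and 5 fell, both shares near those of all probe sets. Mef2c was above the floor on the E14.5 male arrays alone and Klf4 on the E12.5 male arrays alone. Their male stage differences are therefore set by the filter. Tgfbr1 was above the floor on the E12.5 arrays alone, so its stage differences in both sexes are also set by the filter. Among genes of pericytes and vascular mural cells, 5 of 12 were tested. Pdgfb was above the floor on the E14.5 male arrays alone, so its male stage difference is set by the filter. In females 1 rose, the potassium channel gene Kcnj8 at 0.51 ± 0.07, and 1 fell, the receptor gene Pdgfrb at -0.52 ± 0.07 (limma adjusted p = 0.0167 and 0.0151), and in males 3 rose and 2 fell. The log2 of the list's summed signal ran from 10.31 to 10.54 at E14.5, against 10.31 to 10.34 at E12.5. Rgs5, a pericyte marker, was under the floor on all arrays. Among the signals that guide myoid cells in the testis, 10 of 11 were tested. In females 0 rose and 4 fell, and in males 1 rose and 5 fell, beside the 8.41% higher and 14.6% lower of all probe sets in females and 38% and 39.9% in males.

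Markers of other tissues were set against the same shares of all probe sets. Myf6 of skeletal muscle, the steroidogenic Insl3 and the Sertoli gene Hsd17b3 were above the floor on the E14.5 male arrays alone. The endothelial Tek was above it on the E12.5 male arrays alone. Male stage differences of these genes are therefore set by the filter. The skeletal muscle genes Mylpf and Acta1 and the germ cell gene Stra8 were above the floor on E14.5 arrays alone. Their stage differences in both sexes are set by the filter as well. All of these genes were kept in their lists. Of 34 genes of skeletal and cardiac muscle, 18 were tested, and in females 4 rose and 2 fell with stage. Those that rose were the light chain Mylpf, set by the filter, the cardiac actin Actc1 (0.84 ± 0.11), the light chain Myl4 (0.24 ± 0.05) and the troponin Tnni3 (0.43 ± 0.08). The limma adjusted p of Actc1, Myl4 and Tnni3 ran from 0.0131 to 0.0346. Myl4 and Tnni3 did not pass on the deposited values, at -0.0099 and 0.18 (limma adjusted p = 0.919 and 0.224). In males 12 rose and 3 fell, where 38% of all tested probe sets were higher. The log2 of the list's summed signal ran from 12.12 to 12.53 at E14.5, against 11.85 to 12.12 at E12.5. The Actc1 probe set, like that of Actg2, is a family probe set. Of 9 tested endothelial genes, 0 rose and 0 fell in females, and 2 rose and 4 fell in males. Of 6 steroidogenic genes, 0 passed in females, with a median of 0.81, and 5 rose in males, with a median of 1.67. In females, the mean level of this list went from 7.91 at E12.5 to 8.03 at E14.5 in KO, and from 7.38 to 8.98 in WT. That of the Sertoli list went from 8.04 to 7.80 in KO and from 7.90 to 8.33 in WT. The later WT array is the female one whose Eif2s3y level lay within the male range. The median of 0.81 is therefore not read as a rise in both genotypes, and the reason for the split was not tested. Of 7 tested germ cell genes, 4 rose and 1 fell in females, and 1 rose and 3 fell in males. Of 8 tested genes of the mesonephros and its ducts, 0 rose and 2 fell in females, and 4 rose and 2 fell in males. Of 11 Sertoli genes, 0 rose and 1 fell in females, and 3 rose and 4 fell in males, and of 7 pregranulosa genes 0 passed in females and 1 rose and 1 fell in males. The part of these cells in the rise of Acta2 and Tagln was not tested.

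**Figure D4:**
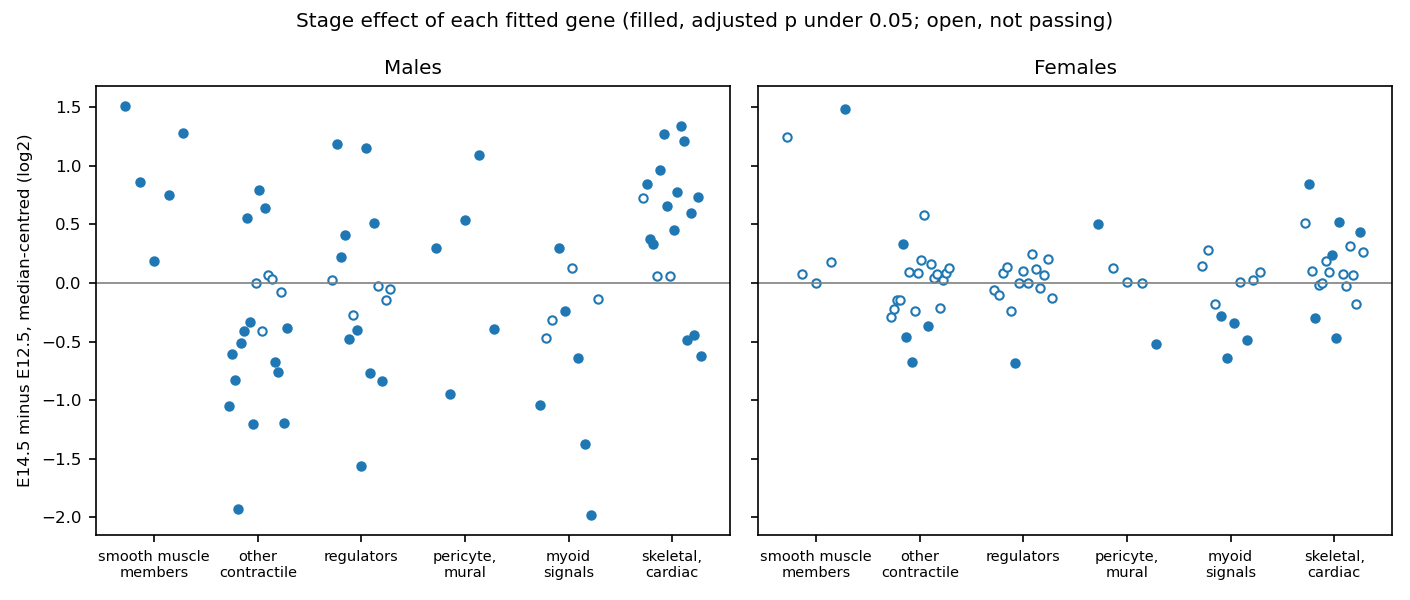
E14.5 minus E12.5 difference (median-centred log2 with values under the floor set to it, vertical axis) of each tested gene, by list, in males and in females; filled points passed limma's adjusted p threshold of 0.05 and open points did not. In females, Tagln is at 1.49 and Acta2 at 1.25, and the skeletal actin Acta1, at the floor at E12.5, differed by 2.11 in the KO pair and 1.43 in the WT pair without it. In males the other contractile genes lie mostly under 0.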

How the data were processed

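The series matrix held log2 values that the authors deposited for 12488 probe sets on 8 arrays, made with MAS5 per the submitters' processing notes; neither its version nor its scaling target is stated in the labels. The log2 unit was read from the deposited values. In the KO male E12.5 column, which was handled as other than plain log2 as deposited, 14 cells held date serial numbers (41278 to 41284) and were set to missing. Each array was centred on the mean of the array medians, floored at the 40th percentile, and 66 control probe sets were left out. limma 3.58.1 in R 4.3.3 fitted sex × genotype plus sex × stage on all arrays, with an intensity trend, two-sided, Benjamini-Hochberg over 8452 probe sets at 0.05. With no replicates, the error came from 2 residual degrees of freedom, the change of the genotype difference between stages, plus 2.77 prior ones. The array count limits precision. The fit was tested on simulated data. Named genes were the 6 members, Wnt4, sex-check genes, Actb and Actg1, up to 4 list genes with the largest male stage effects, and the 6 most alike profiles; list genes counted 5 or fewer in a direction were named after their values were seen. Genes with several probe sets are given by the one of highest mean. Actb had a control probe set alone. The members and all lists were chosen with earlier results of these data known.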

Additional observations from a re-analysis of the deposited data

Results flagged for a closer look

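The stage difference was larger in males than in females for Actg2 (0.79) and Des (0.57) in limma's test of that difference, which 69% of all tested probe sets also passed. After centring, KO minus WT of Acta2 and Tagln was under 0 at E14.5 and above 0 at E12.5 in both sexes. This pattern was shared by 5.09% of the tested probe sets with a value on all arrays, while 4.18% had the reverse. Acta2 was at -0.68 in males and -0.0861 in females at E14.5, and at 0.49 in males and 0.59 in females at E12.5. Tagln was at -0.50 in males and -0.0473 in females at E14.5, and at 0.23 in males and 0.17 in females at E12.5. Its female E14.5 value was 0.0081 on the deposited values and 0.028 after quantile normalization, so the Tagln pattern did not hold on those scales. Cnn1 was at -0.18 in males and -0.0713 in females at E14.5, and at 0.0268 in males and 0.0529 in females at E12.5, with only the E14.5 male levels above the floor, so no sign is read from them. In the added fit, the difference between the stages passed for none of the 3, with limma adjusted p of 0.656 for Acta2 and, rounded, 1 for Tagln and Cnn1.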

How the results depend on the processing

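With 1 array per group, errors borrow from other comparisons. No paired analysis was possible because each group held 1 array. The number of members passing the stage test in females was 1 in the main setting, where 23.1% of all probe sets passed. It was 2 on the deposited values, after quantile normalization, with the floor at the 20th percentile, with no filter and no floor, and in the additive model. In that order, 61.7%, 20.5%, 25.9%, 30.5% and 6.31% of all probe sets passed. Without both E14.5 male arrays it was 0, as it was in each fit that left out 1 array (0 to 0). In those fits 0 of all probe sets passed. In males the member count was 5 with Cnn1, which the filter let through, against 1 on the deposited values and 2 in the additive model. The shares of all probe sets were 77.8%, 85.1% and 6.31%, and on the deposited values 9.41% were higher. The stage-by-sex count was 2, against 4 with the lower floor and 4 with none, where 69%, 69.9% and 70.8% of all probe sets passed. The sex count at E12.5 was 0, against 1 with no floor (16.3% and 28.1% of all probe sets). At E14.5 it was 3, again with Cnn1, against 0 in the additive model (77.5% and 0.142% of all probe sets). The cause was not tested.

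Some values changed sign. On the deposited values these were the stage values of Des in males (-0.024), Actg2 (-0.18), Des (-0.070) and Myl4 (-0.0099) in females, Pdlim7 (-0.14) and Itga7 (-0.22) in males, the sex value of Actg2 at E12.5 (0.016) and the stage-by-sex value of Acta2 (-0.26). Quantile normalization turned the sex value of Tagln at E14.5 (0.037). KO minus WT of Tagln in the single pair of E14.5 females turned on both scales (0.0081 deposited, 0.028 quantile-normalized). The additive model, which has 1 stage, 1 sex and 1 genotype term, turned those of Tagln at E14.5 (0.0095) and Actg2 at E12.5 (0.27), the KO values of Tagln in females (-0.038), Acta2 (0.077) and Des (0.017) in males, and the female stage values of Csrp1 (-0.089) and Pdlim7 (0.14). Without both E14.5 male arrays, the male KO values were 0.49 for Acta2, 0.23 for Tagln and 0.022 for Des.

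Leaving out 1 array at a time, the Acta2 values ran from -0.36 to 0.81 for sex at E12.5, -0.10 to 1.07 for sex at E14.5, -0.086 to 0.59 for KO in females, -0.68 to 0.49 for KO in males, -0.94 to 0.23 for KO-by-sex and -0.32 to 0.85 for stage-by-sex. Those of Tagln ran from -0.25 to 0.48, -0.46 to 0.27, -0.047 to 0.17, -0.50 to 0.23, -0.56 to 0.17 and -0.57 to 0.16 for the same comparisons, and Des from -0.057 to 0.022 for KO in males. None of these passed in any such fit.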
